A study of Mus musculus with 46 samples.

Results

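Reads of Arc, the activity-regulated cytoskeleton-associated gene, were found in 25 of 46 single OLM interneurons, and these 25 cells were set against the 21 cells with 0 Arc reads. The sides were chosen by a measured value: at least 1 raw read assigned to Arc made a cell Arc-detected. Arc itself is therefore described and carries no test, and the comparison asks whether other activity-regulated genes differed between the sides. OLM (oriens-lacunosum moleculare) interneurons are GABA-releasing cells of the hippocampus that contact the distal dendrites of pyramidal cells.

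The 25 Arc-detected cells comprised 13 from an Htr3a-Cre driver line and 12 from an Sst-Cre driver line, and the 21 Arc-undetected cells comprised 10 and 11. The Htr3a gene, a serotonin receptor subunit, and the Sst gene, somatostatin, drive Cre recombinase in these mice, so each line marks cells in which its driver gene was active. On both sides the labels give mice at postnatal day 21 to 30, cells identified as OLM that passed quality control, and cytosol drawn up through a patch-clamp pipette. No stimulus, treatment or animal is named for any cell, and neither sex nor strain is given in the sources used here. Each library is 1 cell and the cells of a side may share animals. Differences are therefore given with the spread between cells (SD) and without p-values, and a gene was called when its mean differed by at least 1 on the log2(CPM + 1) scale. CPM is the count scaled to 1000000 assigned reads of that cell.

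Arc is transcribed within minutes of strong synaptic input and calcium entry, and its protein promotes the removal of AMPA receptors from synapses by binding the endocytic proteins endophilin and dynamin. It belongs to a wider set of rapid genes, which include transcription factors such as Fos, Egr1 and Npas4 and feedback regulators such as the Dusp phosphatases. Their promoters are known to be reached by CREB, a factor that binds the cAMP response element (CRE) after phosphorylation by calcium-dependent and other kinases. Later genes of the programme encode secreted or synaptic proteins.

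The promoters of 5 rapid genes are shown as examples, and the comparison itself uses counts only. Fos and Npas4 are markers of activity that were not called. Nr4a1, Arl4d and Gadd45g were called higher in Arc-detected cells of both lines. Each promoter runs 5′ to 3′ on the gene's strand from 250 bases before to 50 bases after the transcription start (RefSeq, GRCm38.p6). Capitals mark the CRE core, TGACG or, read on the other strand, CGTCA. Fos is at chr12:85473640-85473939 on the plus strand, Npas4 at chr19:4989922-4990221 on the minus strand and Nr4a1 at chr15:101266596-101266895 on the plus strand. Arl4d is at chr11:101665291-101665590 and Gadd45g at chr13:51846425-51846724, both on the plus strand.
Fos: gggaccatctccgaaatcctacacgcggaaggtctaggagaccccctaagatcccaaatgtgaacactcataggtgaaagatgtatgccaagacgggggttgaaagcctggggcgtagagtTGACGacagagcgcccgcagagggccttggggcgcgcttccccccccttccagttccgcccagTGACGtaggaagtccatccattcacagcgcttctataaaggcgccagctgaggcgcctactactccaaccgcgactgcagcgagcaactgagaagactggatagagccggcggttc
Npas4: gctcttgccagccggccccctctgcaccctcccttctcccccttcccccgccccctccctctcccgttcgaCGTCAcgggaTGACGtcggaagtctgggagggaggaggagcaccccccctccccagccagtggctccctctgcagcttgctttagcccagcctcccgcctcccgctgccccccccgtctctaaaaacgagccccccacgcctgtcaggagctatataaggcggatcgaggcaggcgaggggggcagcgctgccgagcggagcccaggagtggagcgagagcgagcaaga
Nr4a1: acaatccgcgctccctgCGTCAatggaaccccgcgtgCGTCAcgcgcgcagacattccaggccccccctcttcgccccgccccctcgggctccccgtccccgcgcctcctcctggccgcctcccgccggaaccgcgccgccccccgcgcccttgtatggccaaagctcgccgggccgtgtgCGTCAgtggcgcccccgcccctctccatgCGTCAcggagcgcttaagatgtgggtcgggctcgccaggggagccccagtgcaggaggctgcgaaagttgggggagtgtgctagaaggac
Arl4d: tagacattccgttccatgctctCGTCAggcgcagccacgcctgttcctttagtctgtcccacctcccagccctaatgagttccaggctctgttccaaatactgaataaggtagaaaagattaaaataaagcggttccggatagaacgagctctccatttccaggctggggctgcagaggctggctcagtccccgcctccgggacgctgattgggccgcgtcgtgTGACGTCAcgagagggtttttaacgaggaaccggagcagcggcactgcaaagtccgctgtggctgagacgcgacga
Gadd45g: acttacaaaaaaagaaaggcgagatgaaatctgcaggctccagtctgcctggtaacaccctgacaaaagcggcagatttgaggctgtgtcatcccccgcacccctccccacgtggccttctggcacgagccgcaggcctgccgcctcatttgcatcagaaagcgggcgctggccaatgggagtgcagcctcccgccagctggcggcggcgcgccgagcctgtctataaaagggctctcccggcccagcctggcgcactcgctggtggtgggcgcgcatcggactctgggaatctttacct

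Fos and Npas4 each held 2 cores, Nr4a1 held 4, Arl4d held 3 and Gadd45g held 0. The full palindrome TGACGTCA, which counts as 2 cores on opposite strands and stands in Arl4d, was found in 4 of the 36 rapid genes that had a promoter in the table (11.1%), out of 45 named, against 1.79% of all promoters and 3.26% of those of genes compared here. At least 1 core was found in 20 of these 36 (55.6%), against 20.8% of all 32851 promoters in the table and 32.4% of the 9809 promoters of genes compared here. A core stood in 4 of 13 promoters of rapid genes called higher and in 16 of 23 of those not called higher. The CArG box, the site of serum response factor, matched 1 of 36 promoters (2.78%), in Zfp36, against 1.63% of all promoters. These matches describe letters and no binding was measured.

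Arc levels spread widely on the side that the rule chose. Arc lies at chr15:74669083-74672570 on the minus strand (GRCm38, ENSMUSG00000022602), its exons overlapped no other annotated gene, and 0% of its 31-base words occurred in transcripts of other genes. The 25 Arc-detected cells had 1 to 7933 Arc reads with a median of 958, or 0.295, 95.3 and 488 CPM as the lowest, median and highest level. Of these cells, 23 reached 1 CPM, 19 reached 10 CPM and 10 reached 100 CPM. Htr3a-line cells ran from 0.295 to 427 CPM with a median of 97.7. Sst-line cells ran from 6.40 to 488 CPM with a median of 78.3. The lines overlapped from 6.40 to 427 CPM, and below 6.40 CPM all Arc-detected cells were of the Htr3a line. The cells just inside the rule were all of the Htr3a line, at 1, 13, 23 and 67 reads, and the next was an Sst-line cell at 107 reads. All cells outside it had 0 reads, which at 3 counts per library allows 0.115 to 0.532 CPM. No molecular identifiers are named for these libraries, so copies of a molecule may be counted more than once, and such limits and the share intervals reflect counting error alone.

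The driver lines contributed to the sides in similar shares. Arc was detected in 13 of 23 Htr3a-line cells (56.5%, exact Clopper-Pearson 95% interval 34.5 to 76.8) and in 12 of 23 Sst-line cells (52.2%, 30.6 to 73.2). Over both lines the share was 54.3%. These intervals overlap almost entirely, and with 23 cells in a line a moderate difference in the share was not detectable.

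Genes read, in contrast, differed between the sides. Between 4064 and 9741 genes (median 8112) were read in Arc-detected cells, and between 3225 and 12693 (median 6629) in Arc-undetected cells. The ranges overlapped, and the highest value belonged to an Arc-undetected cell. Within the Htr3a line the medians were 8203 in Arc-detected and 6807 in Arc-undetected cells, and within the Sst line 7279 and 6196. Assigned reads had a median of 16251901 (3391829 to 31386369) in Arc-detected cells and 13814409 (5639490 to 26136222) in Arc-undetected cells. Within the Htr3a line the read totals ran the other way, with medians of 15239176 and 16591139. After each library was thinned to 3000000 reads the medians of genes read were 7623 and 6381, so the gap remained at equal read totals. How far the number of genes read sets the differences below was not tested beyond a fit that holds it and the line constant. That fit's values are given for the gene counts, the rapid lists and a part of the genes named here. A gene without such a value need not keep its call in that fit.

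**Figure D1:**
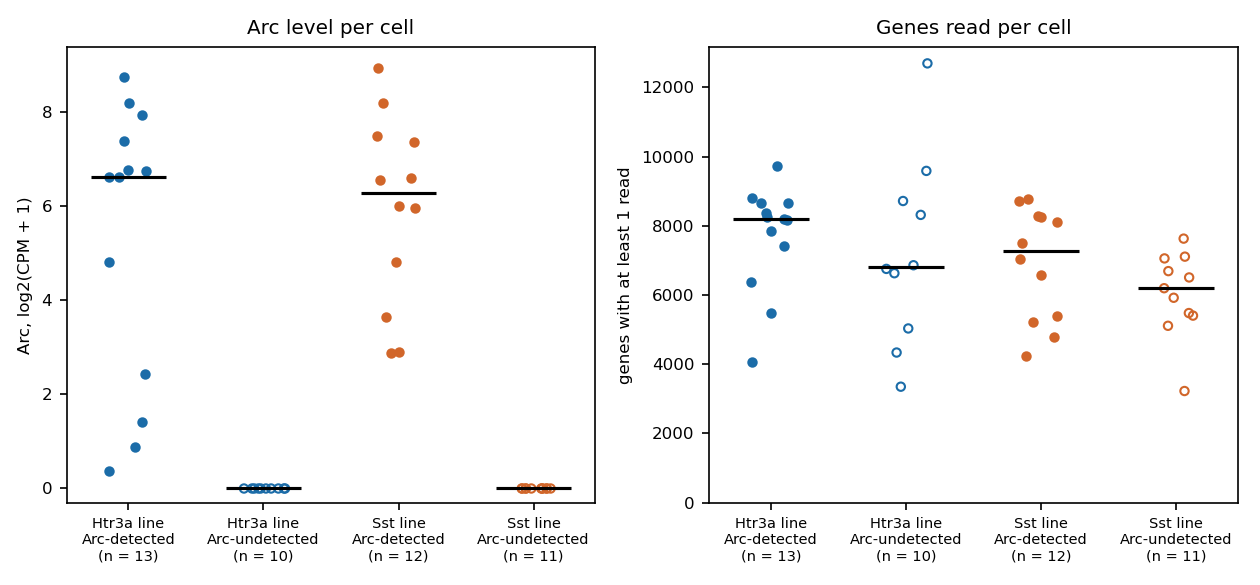
Arc level as log2(CPM + 1) (left) and number of genes with at least 1 read (right) in each cell, by driver line and side; points are cells (filled Arc-detected, open Arc-undetected) and bars are medians. Arc runs continuously from 1 read to 488 CPM, and genes read have a median of 8112 in Arc-detected and 6629 in Arc-undetected cells with overlapping ranges.

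A few libraries stood apart. The Arc-detected cell with 1 Arc read (Htr3a line replicate 20) had the fewest assigned reads of all 46, 3391829, with 4064 genes read, 24 Gad1 reads and 1.18 CPM of Fos. Among Arc-undetected cells, Htr3a line replicate 4 had 4 Gad1 reads and Htr3a line replicate 10 had 12693 genes read. Gad1, which makes GABA, was read in 46 of 46 cells, and Sst was at 1274 CPM or more in every Arc-detected and 1726 CPM or more in every Arc-undetected cell. Values without them are given beside the counts of calls and beside genes that they move most.

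Of the genes compared, 6618 had a higher mean in Arc-detected cells and 3385 a lower one. Over the 10003 genes other than Arc with a read in at least 12 cells, the median difference, Arc-detected minus Arc-undetected, was 0.28, and it was 0.29 within the Htr3a line and 0.24 within the Sst line. With line and log2 of genes read as covariates the median was 0.01. A pseudocount of 10 (0.11) and TMMwsp factors (0.31) moved this median less than the covariates did. By size alone 1780 genes were called higher (17.8%) and 324 lower (3.24%). With the covariates 993 were called higher (9.93%) and 796 lower (7.96%), so the higher share of all calls was 55.5% rather than 84.6%; 971 genes were called higher and 321 lower both ways. The pseudocount of 10 cut the calls further, to 297 higher and 32 lower. Leaving out the 1-read cell gave 2124 higher and 267 lower, and leaving out all 3 libraries named above gave 2147 and 271.

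Agreement between the lines was limited. Within the Htr3a line alone 2401 genes were called higher (24.0%) and 761 lower (7.61%), and within the Sst line alone 2501 (25.0%) and 1090 (10.9%). A difference of at least 1 with the same sign in each line was found for 702 genes higher (7.02%) and 100 lower (1.0%). These 702 were 29.2% of the Htr3a-line and 28.1% of the Sst-line higher calls, and the 100 were 13.1% and 9.17% of the lower calls. The filter counts cells of both sides together, so a gene read mostly on 1 side could pass it.

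The activity markers that accompany Arc, Fos and Npas4, were not called between the sides. Fos, which encodes a subunit of the AP-1 transcription factor, was read in every cell, at 1.18, 720 and 3167 CPM (lowest, median, highest) in Arc-detected cells and 83.2, 580 and 1454 CPM in Arc-undetected cells. The ranges overlapped almost fully, and both the lowest and the highest Fos cell were Arc-detected. On the log2 scale Fos averaged 8.98 ± 2.14 in Arc-detected and 8.86 ± 1.26 in Arc-undetected cells (SD, n = 25 and 21), a difference of 0.12, with 0.13 in the Htr3a line and 0.10 in the Sst line. This small value depended on single cells and on the Arc minimum. It was 0.45 without the 1-read cell, 0.80 with that cell on the Arc-undetected side and -0.01 without Sst line replicate 17. With the covariates it was -0.06. At a minimum of 1 Arc CPM the Fos difference was 0.98, and at 10 Arc CPM it was 0.87.

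Npas4, a neuron-specific transcription factor whose induction depends on calcium entry, was read in 10 of 25 Arc-detected and 7 of 21 Arc-undetected cells. Its highest level was 132 CPM in Arc-detected and 60.6 CPM in Arc-undetected cells, and its median was 0 on both sides. The difference was 0.45 (0.68 in the Htr3a line, 0.20 in the Sst line), and Npas4 was not called. Both sides thus held cells with and without Npas4 reads.

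Among the transcription factors of the rapid programme, Nr4a1, Klf10, Ier5 and Egr2 were called higher in each line, while Fos, Fosb, Junb, Jund and Egr1 were not called. With a pseudocount of 10 none of the 4 reached 1: Nr4a1, Klf10 and Ier5 were at 0.97 each. At a minimum of 10 Arc CPM Egr2 was at 0.57. Of 28 listed factors 24 were compared, and 8 were called higher (33.3%) and 0 lower, beside 17.8% and 3.24% of all genes compared. In each line 4 of the 24 were called higher, beside 7.02% of all genes compared. The median difference of the 24 was 0.50, beside 0.28 for all genes, with 0.84 in the Htr3a line and 0.16 in the Sst line. With the covariates the median was 0.28, and 5 were called higher and 0 lower, beside 9.93% and 7.96% of all genes compared. Without the 1-read cell the median was 0.67.

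Nr4a1, an orphan nuclear receptor, was read in 21 of 25 Arc-detected and 14 of 21 Arc-undetected cells. It reached 44.2 CPM as the median and 281 as the highest level in Arc-detected cells, against 10.5 and 236 CPM in Arc-undetected cells, with cells at 0 on both sides. The difference was 1.65 (1.08 in the Htr3a line, 2.11 in the Sst line), smaller than the SD between cells of 2.79 in Arc-detected and 2.73 in Arc-undetected cells.

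Klf10, a zinc-finger repressor induced by growth factors, had reads in 13 Arc-detected and 4 Arc-undetected cells and a difference of 1.92. Ier5, an immediate early response gene, had reads in 13 and 5 cells and a difference of 1.83. Egr2, a zinc-finger factor related to Egr1, had reads in 11 and 7 cells and a difference of 1.32. In all 3 genes the levels of the sides overlapped, and more Arc-detected than Arc-undetected cells had a read.

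Other factors were called on the pooled cells only. The AP-1 subunit Jun differed by 1.07 pooled, by 2.31 in the Htr3a line and by -0.15 in the Sst line. Atf3, a stress-responsive factor, differed by 1.17, 3.21 and -0.78 in the same order. Ier2 (1.37) and Fosl2 (1.10) had 0.17 and 0.39 in the Sst line. With the covariates Jun was at 0.60, Atf3 at 0.73 and Ier2 at 0.71. Both Jun and Atf3 changed sign between lines, a difference between lines that was not tested, and Jun, Atf3 and Fosl2 each lost the call without any 1 of several cells. Leaving out each cell in turn gave 0.82 to 1.32 for Jun, 0.87 to 1.47 for Atf3 and 0.83 to 1.21 for Fosl2.

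The abundant factor Egr1 was read in 24 of 25 Arc-detected and 21 of 21 Arc-undetected cells and differed by -0.05, with medians of 694 and 386 CPM. Its mean and median point in opposite directions, and the Arc-detected cells included 1 cell with no Egr1 read and 1 at a low level. Junb differed by 0.54, Fosb by 0.39 and Jund by 0.16. Without the 1-read cell Junb was at 0.87 and Jund at 0.45. Of the sequence words of Jund, 50.1% also occur in transcripts of another gene, so its counts are uncertain. Egr4 (-0.35), Nr4a3 (-0.33) and Crem (-0.16), the gene of a CREB-family factor, were lower in the mean and not called.

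Of the remaining factors compared, Klf6 (0.83), Nfil3 (0.78) and Btg2 (0.59) were higher in the mean without a call, and Klf4, Klf2, Maff and Per1 lay between 0.27 and 0.35. Per1 was at -0.01 without the 1-read cell. Klf2 and Klf4 ran in opposite directions in the lines, at -1.22 and 1.72 in the Htr3a line and 1.82 and -1.10 in the Sst line. The 4 factors read in too few cells were Fosl1, Egr3, Nr4a2 and Csrnp1, the last read in 8 Arc-detected cells and 1 Arc-undetected cell. Counts of the others are not given here. With no filter the median difference of the factor list was 0.42, against 0.50.

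**Figure D2:**
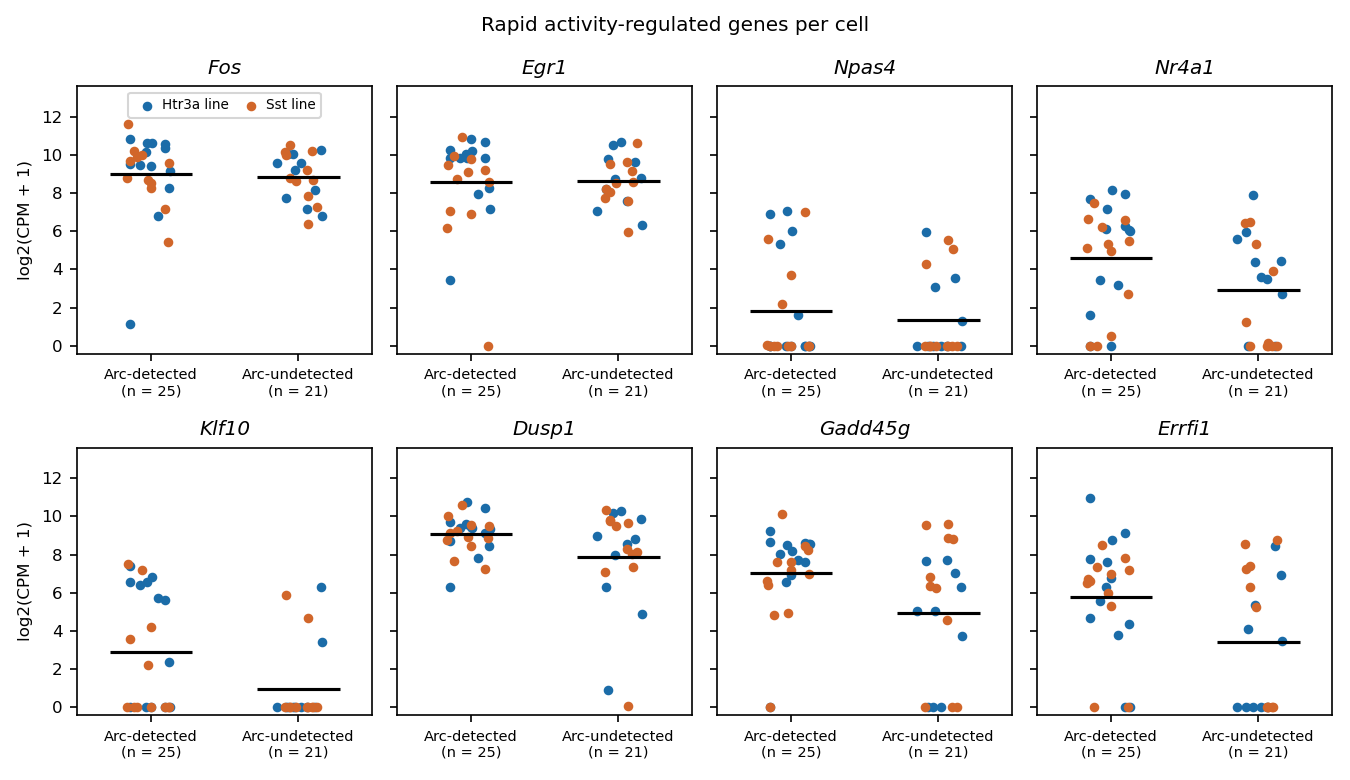
Level of 8 rapid genes in each cell as log2(CPM + 1), Arc-detected cells left and Arc-undetected cells right in each panel; points are cells coloured by driver line and bars are means over the 25 and 21 cells. Fos and Egr1 have nearly equal means on both sides, whereas Nr4a1, Klf10, Gadd45g and Errfi1 have more cells at 0 among the Arc-undetected.

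The rapid signalling and feedback genes held the highest median of the lists over both lines together. Within the Htr3a line the microglial markers were higher (1.42), and within the Sst line the markers of other interneurons (1.31). At a minimum of 10 Arc CPM the feedback median was 0.62, below the late genes (0.75) and the rapid transcription factors (0.66). Of 27 listed 20 were compared, and 9 were called higher (45%) and 0 lower, beside 17.8% and 3.24% of all genes compared. Their median difference was 0.87, with 1.13 in the Htr3a line, 0.82 in the Sst line and 0.59 with the covariates. With the covariates 6 were called higher and 1, Homer1, lower, beside 9.93% and 7.96% of all genes compared. Errfi1, Gadd45g, Cyr61, Zfp36 and Arl4d, 5 of the 20, were higher by at least 1 in each line, beside 7.02% of all genes compared.

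Errfi1, a feedback inhibitor of the epidermal growth factor receptor, was read in 21 of 25 Arc-detected and 11 of 21 Arc-undetected cells. Its median was 98.4 CPM and its highest level 2004 CPM in Arc-detected cells, against 10.2 and 428 CPM in Arc-undetected cells. The highest Errfi1 level belonged to the cell with 1 Arc read. The difference was 2.37 (3.0 in the Htr3a line, 1.79 in the Sst line) and 2.20 with the covariates, beside SDs of 3.0 in Arc-detected and 3.57 in Arc-undetected cells.

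Gadd45g, a stress sensor of the growth-arrest and DNA-damage family, was read in 23 Arc-detected and 15 Arc-undetected cells, with medians of 197 and 76.2 CPM and highest levels of 1117 and 762 CPM. Levels overlapped among the cells with reads, and 2 Arc-detected against 6 Arc-undetected cells were at 0. Its difference was 2.13 (3.23 in the Htr3a line, 1.05 in the Sst line). Gadd45b, of the same family, differed by 1.02, barely past the call, and by 0.43 with the covariates and 0.41 in the Htr3a line. Leaving out each cell in turn gave 0.80 to 1.25. Gadd45a differed by 0.16.

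Cyr61, a secreted matrix protein named Ccn1 in the annotation, was read in 14 Arc-detected and 6 Arc-undetected cells and differed by 2.09 (1.12 in the Htr3a line, 3.0 in the Sst line). Zfp36, which promotes decay of AU-rich messenger RNAs, was read in 15 and 9 cells and differed by 1.92 (2.86 and 1.04), although its exons overlap another annotated gene. Arl4d, a small GTPase of the ARF family, was read in 15 and 7 cells and differed by 1.27 (1.15 and 1.29). In each of the 3 the levels overlapped, and more Arc-detected cells had a read.

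Dusp1, a phosphatase that switches off MAP kinases, was read in every cell, at 77.0, 602 and 1701 CPM (lowest, median, highest) in Arc-detected cells and 0.058, 368 and 1284 CPM in Arc-undetected cells. Its difference of 1.21 rested on 2 Arc-undetected cells with almost no reads, since it was 0.82 without Sst line replicate 8 and 0.865 without Htr3a line replicate 4. Dusp6, which acts on ERK kinases, differed by 1.03 pooled, 2.40 in the Htr3a line and -0.32 in the Sst line, and by 0.84 with the covariates. Trib1, a pseudokinase, differed by 1.16, and by 0.83 with the covariates.

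Homer1 went the other way. This postsynaptic scaffold, whose short form is induced by activity and cannot be told from the long forms in gene counts, had a median of 4.36 CPM in Arc-detected and 23.6 CPM in Arc-undetected cells. It differed by -0.99 (-0.72 in the Htr3a line, -1.33 in the Sst line) and by -1.59 with the covariates. Rheb, a GTPase that activates mTOR complex 1, differed by -0.55, and by -0.24 without the 1-read cell, and Plk2, a synaptic kinase, by 0.38. Dusp14 (0.92), Plk3 (0.82), Sik1 (0.70) and Spry4 (0.48) were higher in the mean without a call, and Sgk1, Rgs2 and Spry2 lay between 0.06 and 0.29. The 7 genes read in too few cells were Dusp4, Dusp5, Ptgs2, Gem, Amigo3, Pim1 and Rasl11a. Of these, Pim1, a kinase, was read in 9 Arc-detected cells and 1 Arc-undetected cell, and Ptgs2, the inducible cyclooxygenase, in 4 and 0. Counts of the others are not given here, and Arc-detected cells had more genes read in the median. With no filter the median difference of the feedback list was 0.82, against 0.87.

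**Figure D3:**
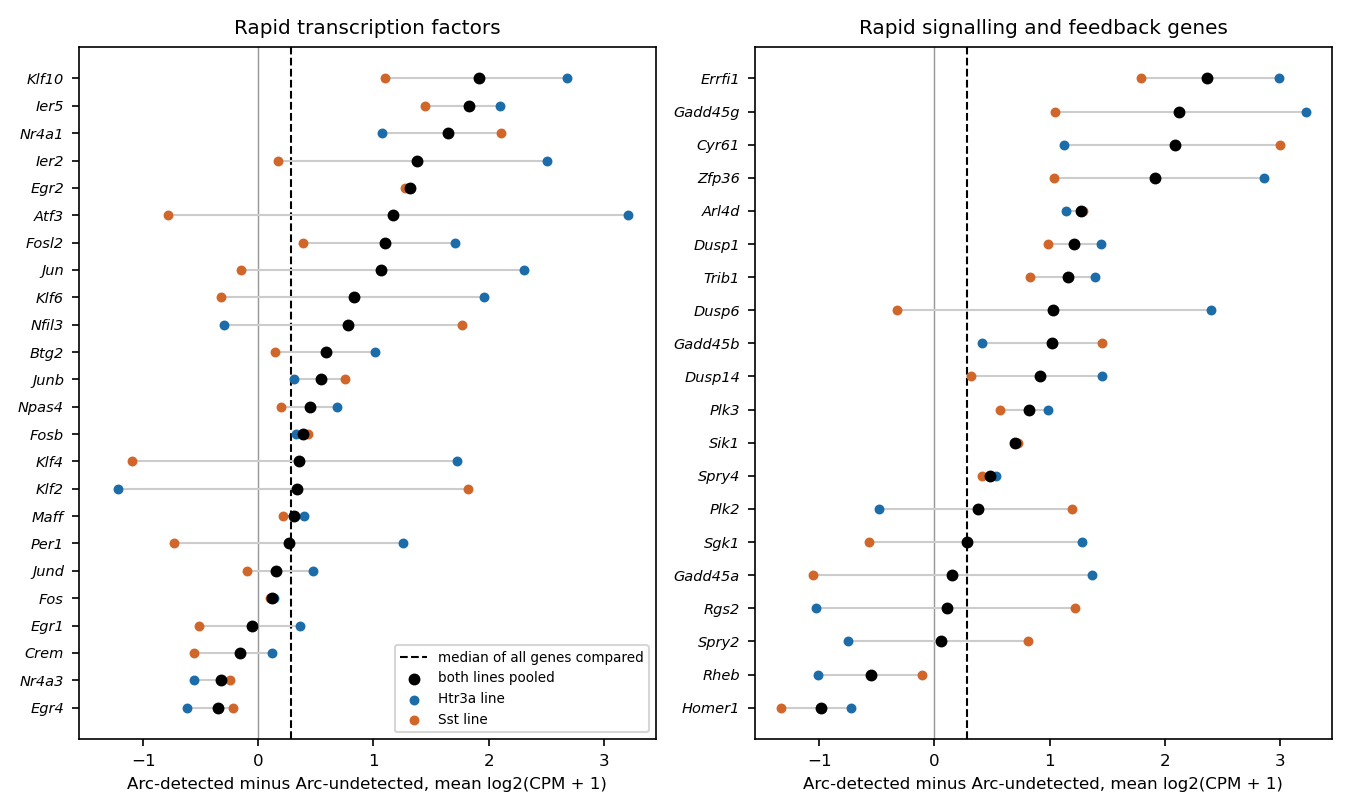
Difference in mean log2(CPM + 1), Arc-detected minus Arc-undetected, for each compared member of the rapid transcription factor list (left) and the rapid signalling and feedback list (right); black points pool both lines, coloured points are single lines, and the dashed line is the median of all genes compared, 0.28. The lines lie close together for Fos and Egr2 and far apart for Atf3 and Klf2.

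The count of rapid genes read per cell moved with the count of all genes read. Arc-detected cells had reads for a median of 18 listed transcription factors and Arc-undetected cells for 14, and for 16 and 13 feedback genes. Per 1000 genes read, Arc-detected cells had a median of 4.40 rapid genes (2.97 to 5.54) and Arc-undetected cells 4.04 (3.38 to 5.07), ranges that overlapped almost fully. The summed level of the transcription factors was 1176, 3074 and 8911 CPM (lowest, median, highest) in Arc-detected and 720, 2304 and 4606 CPM in Arc-undetected cells. Within the Sst line these medians were 2528 and 2810 CPM, the opposite order. For the feedback genes the summed medians were 2776 and 2374 CPM. They were 2815 and 2312 CPM within the Htr3a line and nearly equal, 2542 and 2550 CPM, within the Sst line.

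Late activity-regulated genes were sparse. Only 8 of 20 were compared, and 1, Pcsk1, was called higher (12.5%) and 0 lower, beside 17.8% and 3.24% of all genes compared. Their median was 0.47, with 0.35 in the Htr3a line, 0.10 in the Sst line and 0.29 with the covariates. With the covariates 1 was called higher and 1 lower, beside 9.93% and 7.96% of all genes compared. Pcsk1, a convertase that cleaves neuropeptide precursors, was read in 15 of 25 Arc-detected and 6 of 21 Arc-undetected cells, with a median of 14.6 CPM in Arc-detected cells and 0 in Arc-undetected cells. Its difference was 2.15 (2.55 in the Htr3a line, 1.51 in the Sst line), although the highest level of all, 180 CPM, was in an Arc-undetected cell. The secretory genes Scg2 (-0.09) and Vgf (0.20) were near level, and Bdnf was read in 0 Arc-detected cells and 1 Arc-undetected cell.

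Genes that carry activity signals to the nucleus were close to the background. Of 31 compared 4 were called higher (12.9%) and 0 lower, beside 17.8% and 3.24% of all genes compared, with a median of 0.35 and of 0.16 with the covariates. The 4 were Creb1 (1.56), the kinases Camk4 (1.37) and Camkk1 (1.17), which act upstream of CREB, and Srf (1.29), serum response factor. None of them reached 1 in both lines.

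Genes whose products bind Arc, or control its messenger RNA or protein, had few calls. Of 21 compared 3 were called higher (14.3%) and 2 lower (9.52%), beside 17.8% and 3.24% of all genes compared, with a median of 0.07 and of -0.16 with the covariates. Dnm2, a dynamin of endocytosis, differed by 1.94 (1.33 in the Htr3a line, 2.45 in the Sst line), and the postsynaptic scaffold Dlg4 by 1.10. Rnf216, a ubiquitin ligase that marks Arc protein for degradation, was read in 8 Arc-detected and 12 Arc-undetected cells and differed by -1.30 (-1.02 and -1.57). It was -0.92, and no longer called, without the 3 libraries that stood apart. The call was also lost at a minimum of 1 Arc CPM (-0.94) or 10 Arc CPM (-0.24) and with a pseudocount of 10 (-0.59). With the covariates Rnf216 was at -1.55. Sh3gl1, an endophilin, differed by -1.06.

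**Figure D4:**
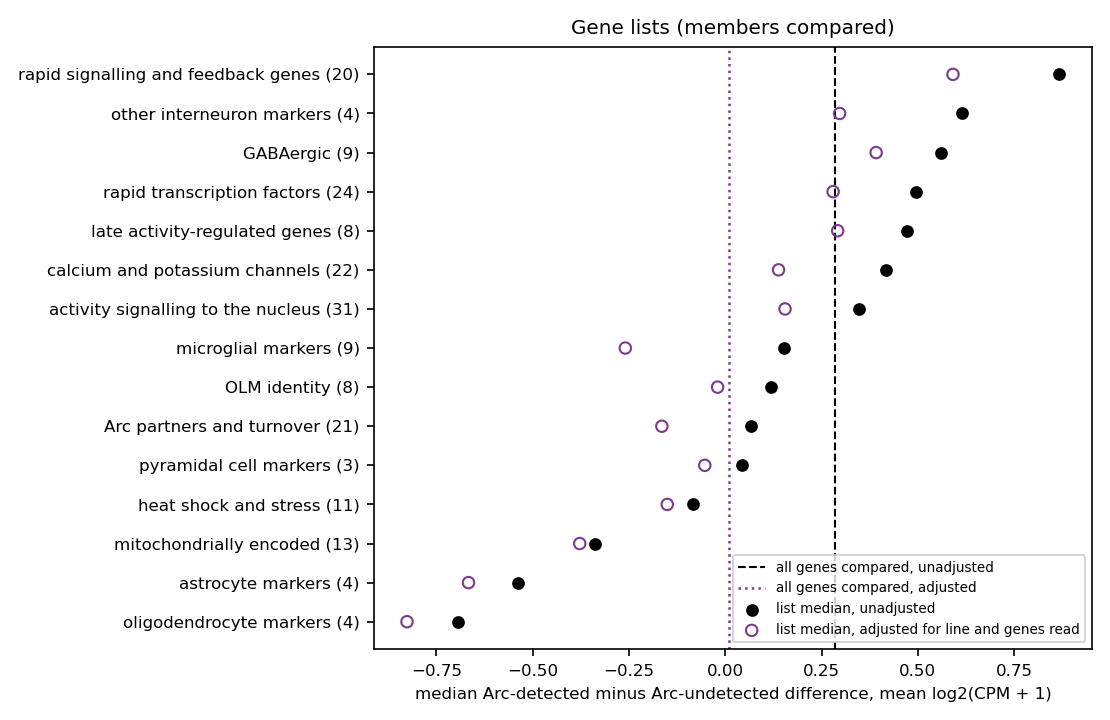
Median difference in mean log2(CPM + 1), Arc-detected minus Arc-undetected, over the compared members of each gene list (number in brackets), unadjusted (black) and with driver line and genes read as covariates (open); vertical lines are the medians of all genes compared, 0.28 unadjusted and 0.01 adjusted. The rapid signalling and feedback genes have the highest median in both fits, 0.87 and 0.59.

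Identity genes did not separate the sides. The 8 OLM identity genes had a median difference of 0.12. Of these 1 was called higher (12.5%) and 0 lower, beside 17.8% and 3.24% of all genes compared. Sst differed by 0.17, with medians of 11742 CPM in Arc-detected and 12448 CPM in Arc-undetected cells. Of 9 GABAergic genes 2 were called higher (22.2%) and 0 lower, beside 17.8% and 3.24% of all genes compared, with a median of 0.56: the transcription factors Dlx2 (2.02) and Dlx1 (1.13). Dlx1, whose exons overlap an antisense gene, was at 0.79 with the covariates and ran from 0.93 to 1.35 when each cell was left out in turn. Gad1 differed by 0.32 and Gad2 by -0.10. Among 22 calcium and potassium channel genes 4 were called higher (18.2%) and 1 lower (4.55%), shares near the background of 17.8% and 3.24%, with a median of 0.42. Kcna1, a Kv1 channel subunit, differed by 1.81 (1.82 in the Htr3a line, 1.81 in the Sst line), and Kcnd2, a subunit of A-type channels, by -1.45 (-1.82 and -1.14), while its relative Kcnd3 differed by 1.77 (0.81 and 2.76).

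Stress genes and mitochondrial transcripts were examined because the handling of tissue can alter them. Of 11 stress genes 2 were called higher (18.2%), the chaperones Hspa5 (1.39) and Hspa1a (1.31), and 0 lower, beside 17.8% and 3.24% of all genes compared, with a median of -0.08. With the covariates Hspa5 was at 0.75. Of the sequence words of Hspa1a, 70.1% occur in transcripts of another gene, so it cannot be told apart from its copy. All 13 mitochondrially encoded genes were compared and 0 were called higher or lower, beside the same 17.8% and 3.24%. Their median was -0.34, and 10 of the 13 were lower in both lines. Their summed level had a median of 2730 CPM (1608 to 7982) in Arc-detected and 3046 CPM (1029 to 23549) in Arc-undetected cells, where the highest was Htr3a line replicate 10 and the next reached 9709 CPM.

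Median differences of the glial marker lists depended on the line. The 9 microglial markers, all compared, had a median difference of 1.42 in the Htr3a line and -1.34 in the Sst line. Of them 1 was called higher (11.1%) and 0 lower, beside 17.8% and 3.24% of all genes compared. The 1 called was Tmem119 (1.06, and 0.84 with the covariates). With the covariates 0 were called higher and 3 lower, beside 9.93% and 7.96%, and the list's median was -0.26. The summed level of the microglial markers was 0.884 to 9460 CPM (median 394) in Arc-detected cells. It was 0 to 7053 CPM (median 941) in Arc-undetected cells, and 1 Arc-undetected cell had none. Within the Sst line the medians were 430 and 1444 CPM, and within the Htr3a line 286 and 394 CPM. The summed median was thus lower in Arc-detected cells of both lines, unlike the list's median difference. The 4 compared of 9 astrocyte markers had a median of -0.54, with 0.50 in the Htr3a line and -1.62 in the Sst line. Of these 0 were called higher or lower, beside the same 17.8% and 3.24%. Their summed medians were 73.8 CPM in Arc-detected and 143 CPM in Arc-undetected cells. Of the 4 compared of 9 oligodendrocyte markers, 1, Mbp (-1.35), was called lower and 0 higher, beside 3.24% and 17.8% of all genes compared. The list's median was -0.03 in the Htr3a line and -1.29 in the Sst line, with summed medians of 114 CPM in Arc-detected and 191 CPM in Arc-undetected cells. Mbp was at -0.98, and no longer called, without Htr3a line replicate 4. Their part in the differences above was not tested.

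The defining pyramidal cell gene Slc17a7, a vesicular glutamate transporter, was read in 0 of 25 Arc-detected and 2 of 21 Arc-undetected cells. Of 9 pyramidal markers 3 were compared and 0 were called, beside 17.8% higher and 3.24% lower of all genes compared. Their summed level was 0 to 270 CPM in Arc-detected and 0 to 258 CPM in Arc-undetected cells. No oligodendrocyte precursor marker reached 12 cells. Of 11 markers of other interneurons 4 were compared. Of these 1, the cannabinoid receptor Cnr1 (1.66), was called higher and 0 lower, beside 17.8% and 3.24% of all genes compared. Vip was read in 0 Arc-detected cells and 1 Arc-undetected cell. The adult beta-globin gene Hbb-bs was read in 0 of 25 Arc-detected and 7 of 21 Arc-undetected cells, and vascular and blood markers together summed to 0 to 292 CPM in Arc-detected and 0 to 12087 CPM in Arc-undetected cells. The highest of these was Htr3a line replicate 10, and without it the Arc-undetected cells reached 210 CPM, below the highest Arc-detected cell.

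The largest differences lay outside the lists of activity-regulated genes used here. Among genes that differed by at least 0.5 with the same sign in each line, the 12 highest ran from 2.85 to 3.55 and the 12 lowest from -2.82 to -2.00. They are the extremes of 2118 candidates and are given as a description. Gpcpd1, a glycerophosphocholine phosphodiesterase, was highest at 3.55 (2.74 in the Htr3a line, 4.34 in the Sst line). It had reads in 23 of 25 Arc-detected and 12 of 21 Arc-undetected cells, with medians of 187 and 0.47 CPM and highest levels of 469 and 519 CPM. The lysosomal fucosidase Fuca1 differed by 3.15, the mitochondrial elongation factor Gfm1 by 3.02, and Fam84a and Srgap2, which shapes dendritic spines, by 3.01 each.

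The other 7 of the 12 highest were Nefl (2.97), the light neurofilament subunit, Ctage5 (2.95), the kinase Tnik (2.94), the ubiquitin ligase Hace1 (2.92), the septin Sept11 (2.88), the coenzyme Q gene Coq9 (2.88) and the glycosyltransferase Galnt1 (2.85). Each of the 12 had a read in 25 to 40 of 46 cells, and cells of both sides reached similar highest levels in several of them. Counts of Nefl are uncertain because 32.2% of its sequence words occur in another gene, and exons of Gfm1 and Coq9 overlap a neighbour.

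Lowest of all was Ttbk2, a tau-tubulin kinase needed for cilia, at -2.82 (-3.74 in the Htr3a line, -2.10 in the Sst line). It was read in 12 of 25 Arc-detected and 17 of 21 Arc-undetected cells, with medians of 0 and 62.2 CPM, and 30.6% of its sequence words are shared with another gene. The sodium-proton exchanger Slc9a8 differed by -2.69 and Gtf2h2, a subunit of the repair and transcription factor TFIIH, by -2.34. Fcer1g, an Fc receptor subunit of microglia and other myeloid cells, differed by -2.07 (-0.69 in the Htr3a line, -3.44 in the Sst line). The median difference of the microglial markers was 1.42 and -1.34 in the same order, and a link was not tested. The remaining 8, from Pde6d (-2.26) to Gpatch4 (-2.00), were Pde6d, Gyk, Sdf2l1, Utp11l, Sec24b, Mark1, Fam92a and Gpatch4. None was a listed activity gene.

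Within the Arc-detected side, Arc level was set against that of 8 rapid genes. Across the 25 cells, which differ in depth and come from both lines, Pearson's r of Arc with Fos was 0.48 and Spearman's rank correlation 0.46, and r was 0.11 without the 2 cells whose Arc level lay farthest from the median. Fosb gave r of -0.45 and a rank correlation of -0.41, and -0.38 without the 2 cells. Junb gave r of 0.37, and 0.04 without the 2 cells. For Nr4a1 r was 0.24 and 0.12 without them, for Npas4 0.31 and 0.30, and for Errfi1 -0.36 and -0.35. Egr1 turned from 0.15 with all cells to -0.09 without the 2, and Gadd45g from 0.08 to -0.25. Arc level had r of 0.05 with the log2 number of genes read and 0.34 with log2 assigned reads, the last falling to -0.02 without the 2 cells. These correlations are descriptions of these cells.

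**Figure D5:**
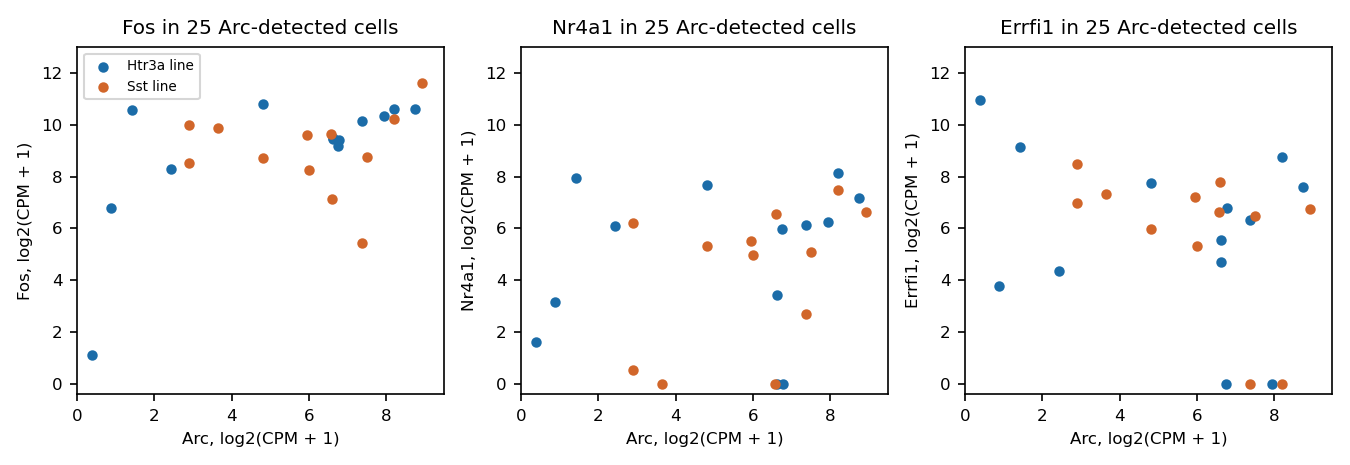
Level of Fos, Nr4a1 and Errfi1 against Arc level, both as log2(CPM + 1), in the 25 Arc-detected cells, coloured by driver line; each point is 1 cell. The correlation with Fos (r of 0.48) drops to 0.11 without 2 cells, and Errfi1 is high in several cells with little Arc.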

How the data were processed

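Single-cell libraries of 46 mouse OLM interneurons were analysed. The authors deposited raw counts, with 22800 genes listed under symbols in one table and 22880 under Ensembl identifiers in another. Their normalized table holds a deposited signal equal to the count over a factor fixed for the cell (0.144 to 2.09), to within 0.1% for 100% of the non-zero entries. The submitters' processing notes name Trimmomatic, STAR, featureCounts and GRCm38. Versions, annotation and strandedness were not given in the sources used here. Genes with overlapping exons are therefore uncertain. No molecular identifiers are named.

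Counts by symbol were scaled to CPM and analysed as log2(CPM + 1) with Python 3.11.15 and pandas 2.3.3. Genes read in at least 12 cells were compared (10003, Arc left out) by the difference of means, Arc-detected minus Arc-undetected, and called at 1 or more in size. The covariate values come from least squares with driver line and log2 of genes read. No test was made, because the sides come from the counts, each sample is 1 cell and no animal is named. The calculations were tested on simulated data. Of 1035 library pairs 0 were identical, with correlations from 0.310 to 0.810.

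The members and the 18 gene lists were chosen with earlier results of these data known. Named genes are all compared members of the activity marker and both rapid lists, the 12 highest and 12 lowest differences of at least 0.5 with 1 sign in both lines (no sex-linked genes, predicted names or pseudogenes), and up to 3 members of each other list by size of difference. The rule named 108 genes, of which some are not reported here; other members of the lists were named after their values were seen. Symbols matched GENCODE M21 for all 108, and 27 have exons that overlap another gene. Alternatives were other Arc minimums, a pseudocount of 10, TMMwsp factors (edgeR 4.0.16), poscounts factors (DESeq2 1.42.0), the deposited signal, thinning to 3000000 reads, other filters, the Ensembl table, single lines and leaving out cells.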

Additional observations from a re-analysis of the deposited data

How the results depend on the processing

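Against 1780 genes called higher and 324 lower, a minimum of 10 Arc CPM gave 2982 higher, a pseudocount of 10 gave 297 higher and 32 lower, and line and genes read as covariates gave 993 higher and 796 lower. A minimum of 5 Arc reads, which moves 1 cell, gave 198 lower, and reads in at least 23 cells 212. The Htr3a line alone gave 761 lower and the Sst line alone 1090. The causes were not tested. Leaving out each cell in turn gave 1560 to 2124 higher and 267 to 434 lower, a gap in median genes read of 1349.5 to 1544, and list medians of 0.35 to 0.67 for rapid transcription factors, 0.69 to 0.98 for feedback genes and 0.31 to 0.65 for late genes. Called genes changed sign at 10 Arc CPM for Fosl2 (-0.34) and Mbp (0.43), in the Sst line alone for Jun (-0.15), Atf3 (-0.78) and Dusp6 (-0.32), and in the Htr3a line alone for Kcnma1 (-0.48). Of 58 named genes called, 52 kept their sign under every setting and 11 lost the call when 1 cell was left out (among them Fosl2, Jun, Atf3, Dusp1, Dusp6, Gadd45b, Trib1, Dlx1, Tmem119 and Mbp). Leaving out cells with 1 to 9 Arc reads, or 3 libraries together, was chosen after seeing the data. No paired analysis was possible because replicate numbers follow sample order and no test was made. With 25 and 21 cells and SDs near 3 on the log2 scale, a difference near 1 is smaller than the spread between cells.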
